A study of Mus musculus with 10 samples.

Results

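The hippocampus of mice sampled 2 days after status epilepticus (SE 2 days) was compared here with that of mice that had no SE (pre-SE). The samples were chosen by their treatment labels alone, and they were 4 of the 10 samples of the series, 2 in each group. The question was which genes stood higher or lower in the hippocampus 2 days after SE, across all genes and with the decreases given as much room as the increases. Total RNA was measured by cap analysis of gene expression (CAGE), in which short tags are read from the capped 5′ ends of transcripts and counted per gene, scaled to the tags of the library as CPM.

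All animals were male ICR (CD-1) mice, an outbred stock, aged 9 to 10 weeks at injection. The SE 2 days group received methyl scopolamine (1 mg/kg), which blocks muscarinic receptors outside the brain, 30 min before pilocarpine (PILO, 290 mg/kg), a muscarinic agonist that causes prolonged seizures. SE was defined by 5 generalized convulsive seizures and was ended with diazepam (10 mg/kg), given once or more. The labels call the pre-SE group untreated, whereas the study's methods describe control mice that were given saline in place of PILO. PILO, SE and diazepam came together in the SE 2 days group, and their effects cannot be told apart. A further group, SE 6 h, had the same treatment and was sampled 6 h after SE, and it is used below only to say which levels at 2 days differed from those at 6 h. Both of these comparisons end in the same SE 2 days mice. Per the study, each group held 2 mice, which are called mouse 1 and mouse 2 below after the replicate numbers of the labels.

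The files held 28995961 and 51710968 tags for the pre-SE mice and 23585359 and 20937023 tags for the SE 2 days mice. At these depths 3 tags correspond to 0.058 to 0.143 CPM, so a change of a gene at or below that level was not detectable in the group where it was low. Markers of the hippocampus were present in all 4 mice. *Prox1*, a transcription factor of dentate granule cells, was at 59.2 and 56.1 CPM in the pre-SE mice and 64.3 and 39.4 CPM in the SE 2 days mice. *Wfs1*, a marker of CA1 pyramidal cells, was at 190.4 and 182.6 CPM in the pre-SE mice and 165.2 and 303.6 CPM in the SE 2 days mice. Among these 4, pre-SE mouse 2 stood apart in genes of the choroid plexus, a tissue that lies against the hippocampus. *Ttr*, the transthyretin gene and the main transcript of that tissue, was at 5.83 and 1668 CPM in the pre-SE mice and at 55.6 and 13.5 CPM in the SE 2 days mice. The summed level of the 9 choroid plexus genes tested was 13.7 and 1724 CPM in the pre-SE mice and 72.3 and 25.9 CPM in the SE 2 days mice. In the SE 6 h mice it was 10.3 and 4042 CPM, so SE 6 h mouse 2 held more of these transcripts than any of the 4. Against pre-SE limma called none of the 9, with none at an unadjusted p under 0.05 and 1 called lower by edgeR's exact test. Counts that change by more than 1.5 times with a single mouse left out are therefore given with their range.

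Prolonged seizures injure neurons and set off a reaction of the other cells of the tissue. Microglia, the resident macrophages of the brain, divide and take up debris, astrocytes enlarge and make more of the intermediate filament protein GFAP, and vessel walls admit plasma proteins and leukocytes. The weeks after SE, before spontaneous seizures appear, are called epileptogenesis.

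At 2 days, 803 genes were higher and 94 were lower than pre-SE among the 15851 genes tested, which is 5.07% and 0.593% of the genes (limma on log2(CPM + 0.1), adjusted p at or below 0.05, Benjamini-Hochberg over all genes tested). Throughout, logFC is the difference of the group means on that log2 scale, given with its standard error, and the adjusted p is from this same fit. A gene is said to rise or fall where this fit called it, and other tools called more genes in several of the lists. The increases were larger than the decreases. The median logFC was 2.67 over the higher genes and -1.53 over the lower genes, beside -0.03 over all genes tested. Of the higher genes, 314 rose by more than 3 on the log2 scale and 63 by more than 5, and of the lower genes 28 fell by more than 2 and 4 by more than 3. The higher genes together held 0.758% and 0.83% of all CPM pre-SE and 3.38% and 4.80% at 2 days. The lower genes together held 0.689% and 0.64% pre-SE and 0.32% and 0.238% at 2 days. The 2 groups did not overlap in any called gene. Over all genes tested, both mice at 2 days stood above both pre-SE mice in 26.3% and below both in 25.6%.

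SE 2 days mouse 2 lay farther from the pre-SE mean than mouse 1 in 526 of the 803 higher genes and in 81 of the 94 lower genes. The counts depended on single mice. With 1 mouse left out the fit called 245 to 605 genes higher, and 3 to 190 lower, with the smallest counts when SE 2 days mouse 2 was left out. Of the 803 higher genes, 200 were called whichever of the 4 mice was left out. Of the 94 lower genes only *Ascl4* was. No called gene could change direction with a mouse left out, since the 2 groups did not overlap in any of them. Of the called genes, 258 higher and 35 lower ones overlap another annotated gene, and 23 of the higher ones carry the same values as another called gene, in 9 sets.

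**Figure D1:**
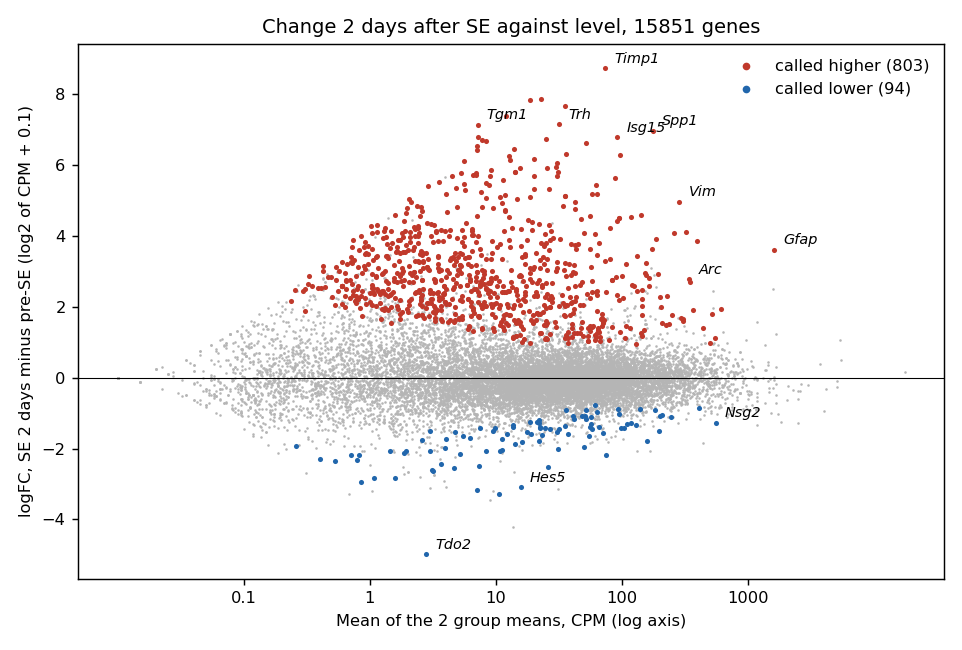
Change at 2 days against level for the 15851 genes tested. The horizontal axis is the mean of the pre-SE and SE 2 days group means in CPM on a log axis, the vertical axis is logFC, and each point is a gene. The 803 genes called higher reach 8.72 (*Timp1*), and the 94 called lower reach -4.99 (*Tdo2*).

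The largest increases by logFC were in genes of matrix control, phagocytes, interferon response, cytokines and AP-1. *Timp1* (mm9 chrX:20447292-20451861, plus strand), which encodes an inhibitor of matrix metalloproteinases, was at 0.17 and 0.19 CPM in the pre-SE mice and at 59.6 and 232.0 CPM in the SE 2 days mice. Its logFC was 8.72 ± 0.84 (adjusted p = 0.000924), the highest of all genes tested. *Timp1* lies within the neuronal gene *Syn1* on the other strand, and *Syn1* itself was at 294.9 and 361.0 CPM pre-SE and 270.9 and 310.6 CPM at 2 days. *Msr1*, a scavenger receptor of macrophages, stood at 0.03 and 0.19 CPM pre-SE and 37.8 and 53.2 CPM at 2 days (logFC 7.86 ± 0.99, adjusted p = 0.00189). *Mnda*, an interferon-inducible gene of myeloid cells that overlaps *Mndal* on the same strand, was at 0.00 and 0.17 CPM pre-SE and 41.2 and 33.5 CPM at 2 days (logFC 7.82 ± 0.75, adjusted p = 0.000924). *Cd72* (chr4:43459334-43467500, minus strand), a receptor of B cells and myeloid cells, was at no more than 3 tags in either pre-SE mouse and at 27.2 and 20.4 CPM at 2 days, at least 295-fold higher than the level of 3 tags. *Cd72* was at 0.35 and 0.14 CPM in the SE 6 h mice, and the difference from 6 h was 6.17 (adjusted p = 0.00285). That both mice at 2 days stood above both pre-SE mice in these 4 genes follows from how they were chosen.

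Secreted factors stood among the largest increases as well. *Lif* and *Clcf1*, cytokines of the interleukin-6 family, were at 0.00 and 0.06 CPM and at 0.03 and 0.10 CPM in the pre-SE mice. At 2 days *Lif* was at 19.2 and 9.79 CPM, at least 179-fold higher, and *Clcf1* was at 13.7 and 19.6 CPM (logFC 6.67 ± 0.93, adjusted p = 0.00315). *Ccl2*, the chemokine that attracts monocytes, rose from 0.28 and 0.37 CPM to 70.3 and 28.1 CPM (logFC 6.72 ± 0.68, adjusted p = 0.00114). *Trh*, the thyrotropin-releasing hormone gene, was at 0.00 and 0.41 CPM pre-SE and at 8.44 and 118.5 CPM at 2 days, so that the SE 2 days mice differed from each other by more than in most of these genes (logFC 7.14 ± 1.32, adjusted p = 0.0114). It lost its call without pre-SE mouse 1 and without SE 2 days mouse 2. *Ifi204*, an interferon-inducible DNA sensor, rose from 0.03 and 0.08 CPM to 12.4 and 15.5 CPM (logFC 6.51 ± 0.72, adjusted p = 0.00131).

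Measured in CPM, the largest gains among called genes were in astrocyte and activity-related genes. *Gfap* (chr11:102748650-102762226, minus strand), the filament protein of astrocytes, was at 245.6 and 230.2 CPM in the pre-SE mice and 2282 and 3642 CPM in the SE 2 days mice (logFC 3.60 ± 0.36, adjusted p = 0.000955). *Vim*, the intermediate filament vimentin, rose from 18.9 and 14.7 CPM to 367.9 and 736.5 CPM (logFC 4.96 ± 0.43, adjusted p = 0.000728). *S100a6*, a calcium-binding protein, was at 24.5 and 45.1 CPM pre-SE and 397.9 and 815.4 CPM at 2 days, and *Lgals1*, which encodes galectin-1, was at 24.8 and 31.6 CPM pre-SE and 358.1 and 622.2 CPM at 2 days. Both were called (logFC 4.09 ± 0.47 and 4.07 ± 0.35). *Apod*, a lipocalin that carries lipids, rose from 67.0 and 122.1 CPM to 471.1 and 730.7 CPM, and *Neat1*, a long noncoding RNA of nuclear paraspeckles, from 143.2 and 164.1 CPM to 593.5 and 553.3 CPM. The neuronal genes *Nptx2*, *Vgf*, *Arc* and *Rgs4* were also among the 10 largest gains of called genes. *Nptx2* stood at 34.5 and 34.5 CPM pre-SE and at 190.9 and 1318 CPM at 2 days, and with *Vgf* it lost its call without either pre-SE mouse or without SE 2 days mouse 2. *Rgs4* lost its call whichever mouse was left out, and *Arc* and *Apod* lost theirs without pre-SE mouse 1 and without SE 2 days mouse 2.

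**Figure D2:**
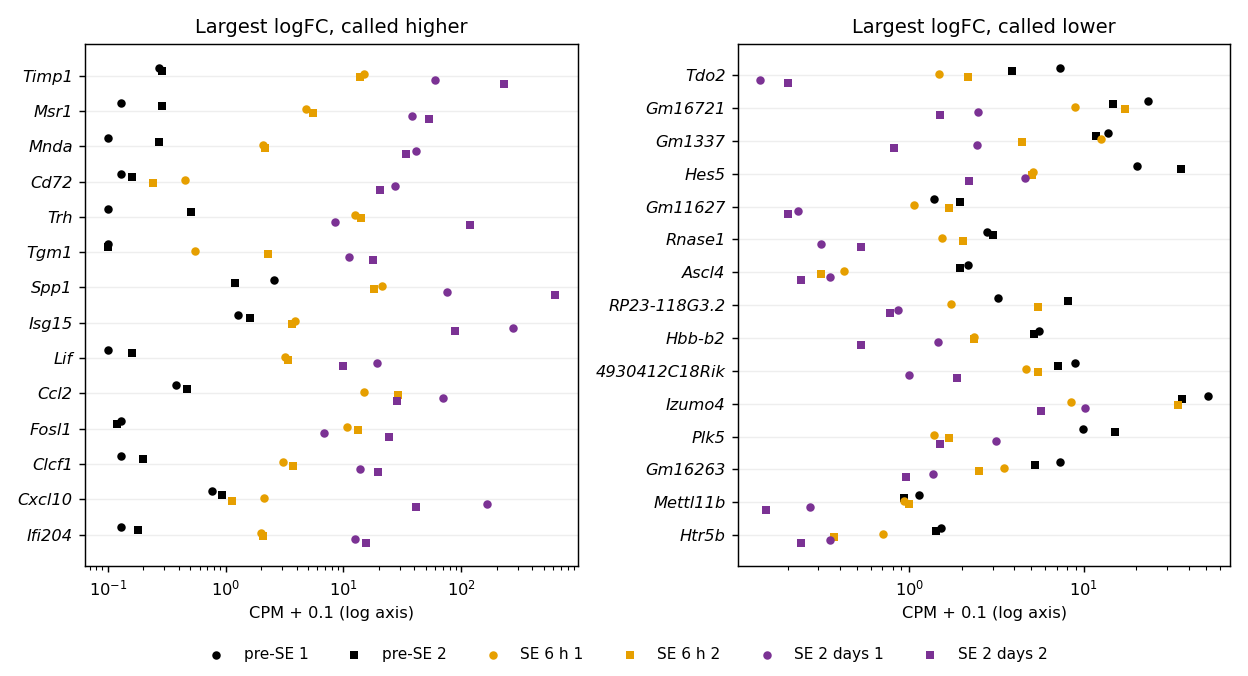
Levels in single mice of the genes with the largest logFC, called higher on the left (14 genes) and called lower on the right (15 genes). The horizontal axis is CPM + 0.1 on a log axis, and each symbol is a mouse of the pre-SE, SE 6 h or SE 2 days group. The genes were chosen among those whose pre-SE and SE 2 days groups did not overlap.

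Genes of cell division were almost all higher. Cells in mitosis express a set of genes that is silent in resting cells, and in the adult hippocampus few cells divide outside the neurogenic zone of the dentate gyrus. Of 24 mitosis genes tested 22 rose and none fell, beside 5.07% of all genes called higher, and the median logFC was 3.58. In all 24 both mice at 2 days stood above both pre-SE mice. Leaving out 1 mouse left 10 to 21 of them called, and *Birc5*, *Bub1*, *Ccna2*, *Ccnb2*, *Cdk1*, *Hmmr*, *Nusap1*, *Plk1* and *Ube2c* were called whichever mouse was left out.

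The promoters of 2 of these genes are shown because cell cycle promoters are known for a pair of short elements, the CCAAT box and the cell cycle genes homology region (CHR). The sequences are from RefSeq on GRCm38.p6, a later build than the mm9 build of the files, and give the 120 bases before the annotated start, 5′ to 3′ on the strand of the gene. Capitals mark every match to CCAAT or TTTGAA on either strand.
*Ube2c*, chr2:164769809-164769928, plus strand: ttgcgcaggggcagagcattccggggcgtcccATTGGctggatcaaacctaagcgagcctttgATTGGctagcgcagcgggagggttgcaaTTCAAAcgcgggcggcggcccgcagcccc
*Cdk1*, chr10:69352913-69353032, minus strand: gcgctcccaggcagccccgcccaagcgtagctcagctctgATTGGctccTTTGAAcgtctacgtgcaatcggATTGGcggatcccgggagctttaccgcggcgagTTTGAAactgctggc
In *Ube2c* the CCAAT box matches begin 88 and 57 bases before the start and the CHR match 29 bases before it. In *Cdk1* the CCAAT box matches begin 80 and 48 bases and the CHR matches 71 and 15 bases before the start. From 250 bases before to 50 bases after the start, 16 of the 20 mitosis genes with a promoter entry held CCAAT and 15 held TTTGAA, on either strand. Over all 27025 genes of the promoter table these shares were 37.9% and 18.1%. A match describes these letters and is not evidence of binding.

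*Ube2c*, which encodes the ubiquitin-conjugating enzyme that drives the exit from mitosis, was at 1.0 and 2.26 CPM pre-SE and at 22.2 and 51.1 CPM at 2 days (logFC 4.39 ± 0.63, adjusted p = 0.00357). *Cdk1*, the kinase that starts mitosis, was at 0.34 and 0.64 CPM pre-SE and at 9.03 and 11.3 CPM at 2 days (logFC 4.16 ± 0.49, adjusted p = 0.00137). *Plk1*, a kinase of spindle assembly, rose from 0.17 and 0.23 CPM to 4.03 and 8.36 CPM, and *Hmmr*, a spindle and hyaluronan-binding protein, from 0.07 and 0.25 CPM to 4.28 and 4.44 CPM. *Mki67*, the gene of the proliferation antigen Ki-67, was at 0.41 and 0.64 CPM pre-SE and 5.64 and 7.26 CPM at 2 days (logFC 3.40 ± 0.63, adjusted p = 0.0116). The summed level of the 24 genes was 11.8 and 15.9 CPM in the pre-SE mice, 10.6 and 9.54 CPM in the SE 6 h mice and 150.2 and 239.2 CPM in the SE 2 days mice. The sum at 6 h was below the pre-SE sum, and 23 of the 24 were called higher at 2 days than at 6 h, where 3.14% of all genes were. *Kif23*, a kinesin of the dividing cell, was the exception (adjusted p = 0.0518).

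Genes of DNA replication moved by less. Of 25 tested, 9 rose and none fell, the median logFC was 2.01, and both mice at 2 days stood above both pre-SE mice in 24 of 25. Between 0 and 5 were called with 1 mouse left out, none of them without SE 2 days mouse 2. *Tk1*, the thymidine kinase of the S phase, was at 0.21 and 0.17 CPM pre-SE and 2.84 and 3.63 CPM at 2 days (logFC 3.52 ± 0.52, adjusted p = 0.0041). *Rrm2*, the regulated subunit of ribonucleotide reductase, rose from 0.52 and 0.81 CPM to 6.23 and 11.5 CPM, and *Uhrf1*, which helps copy DNA methylation, from 0.38 and 0.33 CPM to 3.94 and 6.54 CPM. Of the helicase subunits *Mcm3*, *Mcm5* and *Mcm10* rose. *Mcm2* went from 3.45 and 2.77 CPM to 11.02 and 15.1 CPM without passing the test (adjusted p = 0.0885). *Pcna*, the sliding clamp of DNA polymerase, was at 44.4 and 44.7 CPM pre-SE and 94.1 and 91.5 CPM at 2 days (adjusted p = 0.101), and it was at 92.2 and 159.8 CPM at 6 h already. The sequence TTTGGCGC, a form of the E2F element known from replication genes, was in the promoter window of 5 of the 21 replication genes with an entry, in none of the 20 mitosis genes and in 0.537% of all genes of the promoter table.

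Among 17 regulators of the cell cycle, limma called *Myc*, *Cdkn1a*, *Cdk6* and *Rbl1* higher and none lower, whereas edgeR's exact test called 9 higher and 1 lower. Leaving out 1 mouse gave 2 to 4 called, and *Myc* and *Cdkn1a* were called whichever mouse it was. *Cdkn1a*, the p21 inhibitor of cyclin-dependent kinases, was at 9.14 and 7.33 CPM pre-SE and 64.7 and 85.0 CPM at 2 days (logFC 3.16 ± 0.36, adjusted p = 0.00137), and *Myc* at 0.83 and 1.14 CPM and 10.7 and 11.8 CPM (logFC 3.40 ± 0.43, adjusted p = 0.00196). At 6 h *Cdkn1a* was at 91.5 and 113.1 CPM and *Myc* at 10.5 and 21.4 CPM. *Ccnd1*, the cyclin D1 gene, was at 9.79 and 12.98 CPM pre-SE and 30.2 and 78.7 CPM at 2 days and was not called (adjusted p = 0.0983), and *Ccnd2* was at 39.0 and 36.7 CPM and 20.5 and 14.2 CPM (adjusted p = 0.0634).

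Receptors of phagocytosis and complement rose together. The C1q genes encode the recognition protein of the classical complement pathway, and Fc receptors bind antibody-coated targets. Of 17 complement and Fc receptor genes 15 rose and none fell, with a median logFC of 3.01, and in all 17 both mice at 2 days stood above both pre-SE mice. Whichever mouse was left out, 12 or 13 of them were called. *C1qa* was at 41.8 and 46.5 CPM in the pre-SE mice and at 276.1 and 407.5 CPM in the SE 2 days mice (logFC 2.92 ± 0.35, adjusted p = 0.00151). *C1qb* rose from 24.1 and 17.2 CPM to 158.1 and 228.2 CPM and *C1qc* from 39.0 and 35.2 CPM to 265.6 and 282.6 CPM. *Fcgr4*, an activating Fc receptor, rose from 0.07 and 0.08 CPM to 8.31 and 9.55 CPM (logFC 5.69 ± 0.66, adjusted p = 0.00137), and *Fcgr1* from 3.93 and 2.80 CPM to 54.1 and 46.4 CPM. *C3ar1*, the receptor of the anaphylatoxin C3a, was at 1.38 and 0.64 CPM pre-SE and at 23.6 and 24.6 CPM at 2 days. *Itgam*, an integrin subunit of the complement receptor CR3, did not pass the test (adjusted p = 0.102). The summed level of the list was 192.6 and 181.3 CPM pre-SE, 273.2 and 351.0 CPM at 6 h and 1208 and 1447 CPM at 2 days, and 11 of its genes were higher at 2 days than at 6 h.

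Of 22 genes of activated microglia and macrophages 15 rose and none fell, with a median logFC of 2.46, and 6 to 13 were called with 1 mouse left out. *Spp1*, the osteopontin gene, was at 2.48 and 1.10 CPM pre-SE and 76.0 and 628.2 CPM at 2 days (logFC 6.96 ± 1.11, adjusted p = 0.00565), and its call was lost without SE 2 days mouse 2. *Ch25h*, an enzyme that makes 25-hydroxycholesterol, was at 0.24 and 0.19 CPM pre-SE and 33.7 and 21.9 CPM at 2 days (logFC 6.44 ± 0.72, adjusted p = 0.00136). *Cd14*, a receptor for bacterial lipopolysaccharide, rose from 1.31 and 0.43 CPM to 29.6 and 27.4 CPM, and it was at 34.3 and 29.1 CPM at 6 h. *Lgals3*, galectin-3, rose from 2.66 and 1.82 CPM to 60.3 and 71.4 CPM. The lysosomal membrane marker *Cd68* rose from 6.93 and 6.65 CPM to 59.2 and 68.9 CPM (logFC 3.21 ± 0.35, adjusted p = 0.0013). Not all members moved. *Apoe*, also an astrocyte gene, was at 6163 and 4473 CPM pre-SE and 2408 and 3060 CPM at 2 days without passing the test (adjusted p = 0.244), and *Lpl*, *Igf1*, *Ctsb*, *Ctsd*, *Fth1* and *Cybb* did not pass it either. The AP-1 element TGANTCA was in the promoter window of 7 of the 18 genes of this list with an entry, beside 7.93% of all genes in the promoter table.

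Markers of resting microglia did not move as 1 group. Of 15 tested, 4 rose, among them *P2ry6*, *Fcrls* and *Olfml3*, and none fell, with a median logFC of 0.87. Without SE 2 days mouse 2 only 1 was called, and without either pre-SE mouse 2 were. Only *P2ry6* was called whichever mouse was left out. *P2ry6*, a nucleotide receptor of phagocytosis, was at 1.52 and 1.2 CPM pre-SE and 12 and 9.65 CPM at 2 days (logFC 2.90 ± 0.32, adjusted p = 0.00131), and *Olfml3*, a secreted protein of microglia, at 8.38 and 5.82 CPM and 30.6 and 40.2 CPM (logFC 2.31 ± 0.43, adjusted p = 0.0117). *Tmem119* was at 14.1 and 15.5 CPM pre-SE and 36.4 and 30.8 CPM at 2 days (adjusted p = 0.073). *P2ry12*, the receptor that guides processes of resting microglia, went the other way without passing the test, from 41.4 and 26.9 CPM to 18.1 and 16.9 CPM (adjusted p = 0.256). At 6 h both were lower, *Tmem119* at 2.21 and 2.88 CPM and *P2ry12* at 6.51 and 5.14 CPM. Over the list 11 of 15 genes were called higher at 2 days than at 6 h, *Tmem119* among them at a difference of 3.68 (adjusted p = 0.00172), and *P2ry12* was not (adjusted p = 0.0696).

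Leukocytes from the blood share many of these genes, so markers more particular to them were read beside the microglial lists. Of 12 monocyte markers listed, 8 were tested and 2 rose. *Ms4a4c* was at no more than 3 tags in either pre-SE mouse and at 2.12 and 1.91 CPM at 2 days, at least 24.96-fold higher, and *Plac8* rose from 0.10 and 0.10 CPM to 5.05 and 2.24 CPM. Both held whichever mouse was left out. The summed level of the 8 genes was 132.5 and 218.3 CPM pre-SE and 176.8 and 166.9 CPM at 2 days, most of it from *Gda*, which neurons also express. Of 11 neutrophil markers 4 were tested and limma called none, with 1 at an unadjusted p under 0.05 and 0 to 1 called by the other settings and tools. Their summed level was 5.04 and 5.86 CPM pre-SE and 12.5 and 15 CPM at 2 days. Of 14 markers of T, NK and B cells only *Lck* was tested, at 1.21 and 0.64 CPM pre-SE and 0.68 and 0.76 CPM at 2 days. The part of blood leukocytes in the microglial, complement and chemokine results was not tested.

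Reactive astrocyte genes rose and the genes of resting astrocyte function did not rise with them. Of 13 pan-reactive astrocyte genes 11 rose and none fell, the median logFC was 4.96, in all 13 both mice at 2 days stood above both pre-SE mice, and 8 were called whichever mouse was left out. Beside *Gfap*, *Vim* and *Timp1*, *Lcn2*, which encodes an iron-binding lipocalin, was at 0.24 and 0.27 CPM pre-SE and 20.6 and 30.1 CPM at 2 days (logFC 6.14 ± 0.85, adjusted p = 0.00302). *S1pr3*, a receptor for sphingosine 1-phosphate, rose from 2.41 and 2.86 CPM to 85.0 and 159.1 CPM, and *Cd44*, the hyaluronan receptor, from 3.10 and 3.15 CPM to 85.3 and 159.5 CPM (logFC 5.18 ± 0.66, adjusted p = 0.00205). *Cxcl10*, a chemokine that interferon induces, was at 0.66 and 0.83 CPM pre-SE and 166.0 and 41.2 CPM at 2 days (logFC 6.62 ± 0.89, adjusted p = 0.00269). *Steap4* and *Cp* were not called (adjusted p = 0.0983 and 0.161).

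Astrocyte genes are often sorted into an A1 type, known from inflammation, and an A2 type, known from ischaemia. Of 11 A2-type genes 9 rose, with a median logFC of 4.47, and of 11 A1-type genes 7 rose, with a median logFC of 2.23. None of either fell, and the difference between the lists was not tested. With 1 mouse left out 4 to 9 of the A2-type genes and 3 or 4 of the A1-type genes were called, fewest without SE 2 days mouse 2. *Tgm1*, a transglutaminase of the A2 list, was at 0.00 CPM in both pre-SE mice and at 10.9 and 17.6 CPM at 2 days, at least 177-fold higher than the level of 3 tags. *Ptgs2*, which encodes the prostaglandin synthase COX-2 and is also a neuronal gene, was at 20.4 and 19.9 CPM pre-SE, 175.8 and 530.8 CPM at 2 days and 467.9 and 170.3 CPM at 6 h. In the study's PCR, in contrast, *Ptgs2* had fallen back to a low level by 1 to 2 days. *Psmb8*, an immunoproteasome subunit of the A1 list, rose from 2.10 and 3.27 CPM to 57.5 and 35.2 CPM (logFC 4.05 ± 0.43, adjusted p = 0.0013). *Iigp1*, an interferon-inducible GTPase, was at no more than 3 tags in either pre-SE mouse and at 2.88 and 0.62 CPM at 2 days, at least 21.7-fold higher. *Amigo2*, of the A1 list, was at 31.9 and 27.8 CPM pre-SE and 22.01 and 7.74 CPM at 2 days and was not called (adjusted p = 0.197). Most of the A1-type genes that rose, *Psmb8*, *Iigp1*, *Gbp2*, *H2-D1* and *Serping1*, are known to respond to interferon, and of these *H2-D1* and *Serping1* lost their calls whichever mouse was left out.

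Of 20 genes of resting astrocytes only *Aqp4*, the water channel of astrocyte endfeet, rose, a share of 5% beside 5.07% of all genes. It went from 37.4 and 33.6 CPM to 89.1 and 124.6 CPM (logFC 1.57 ± 0.29, adjusted p = 0.0107). Its call was lost when either pre-SE mouse or SE 2 days mouse 2 was left out. None of the 20 was called lower by limma, although 10 were lower at an unadjusted p under 0.05 and other tools called up to 5 lower, and the median logFC was -0.53. *Slc1a2*, the main glutamate transporter, was at 1547 and 1484 CPM pre-SE and at 786.2 and 808.7 CPM at 2 days (adjusted p = 0.0614). *Gja1*, the connexin 43 gene, was at 236.5 and 164.5 CPM and at 86.9 and 115.3 CPM (adjusted p = 0.227), and *Slc6a11*, a GABA transporter, at 134.3 and 43.7 CPM and at 22.98 and 19.7 CPM (adjusted p = 0.245). In 11 of the 20 both mice at 2 days stood below both pre-SE mice, beside 25.6% of all genes.

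**Figure D3:**
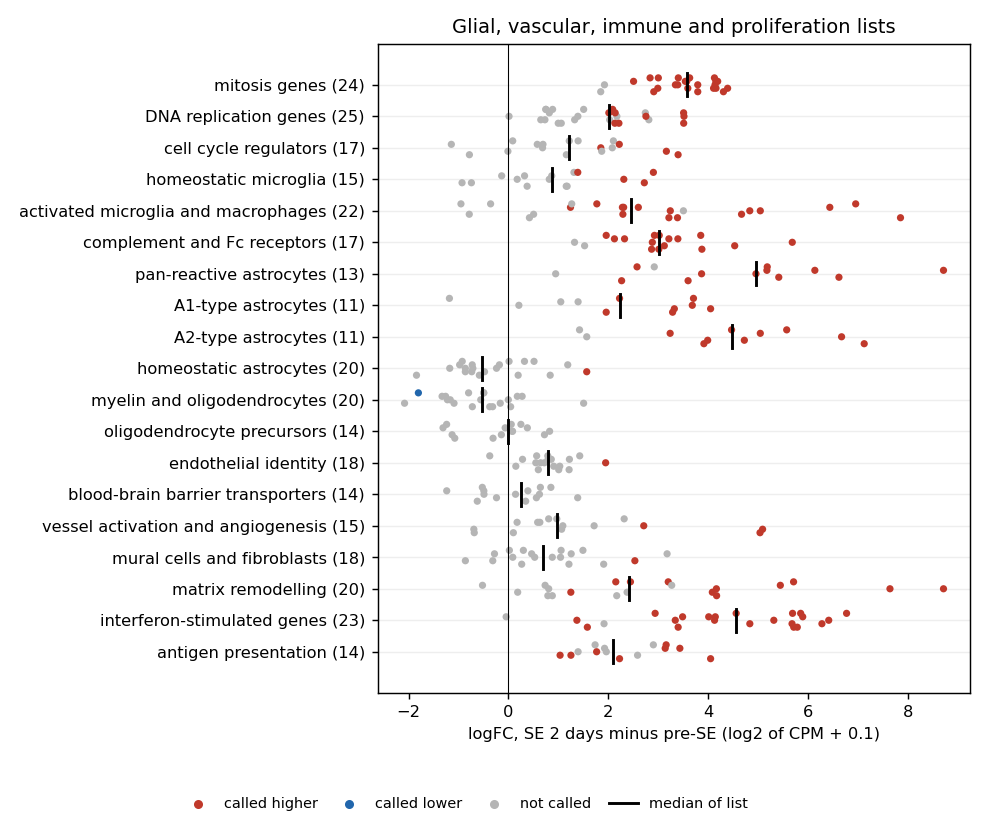
logFC of each gene of the proliferation, glial, vascular and immune lists, with the number of genes tested after each name. Each point is a gene, red where called higher, blue where called lower and grey where not called, and the black bar is the median of the list. The medians run from -0.53 for homeostatic astrocytes and myelin to 4.96 for pan-reactive astrocytes.

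Of 20 genes of myelin and oligodendrocytes limma called 1 lower and none higher, with a median logFC of -0.53. Other settings and tools called 1 to 5 lower, and a fit of only the compared groups called 1 higher. The gene that fell was *Aspa*, the oligodendrocyte enzyme that cleaves N-acetylaspartate, from 26.7 and 23.7 CPM to 6.61 and 7.69 CPM (logFC -1.80 ± 0.40, adjusted p = 0.026), and its call was lost whenever a mouse was left out. *Mbp*, myelin basic protein, was at 2310 and 2798 CPM pre-SE and 898.0 and 1256 CPM at 2 days (adjusted p = 0.0926). *Trf*, the transferrin gene, went the other way, from 74.6 and 84.8 CPM to 180.4 and 283.4 CPM, and just missed the threshold (adjusted p = 0.0524). Of 14 genes of oligodendrocyte precursors limma called none, with 1 above and 3 below pre-SE at an unadjusted p under 0.05 and none called by the other settings and tools. *Pdgfra*, the receptor that marks these cells, was at 20.4 and 18.2 CPM pre-SE and 21.3 and 24.7 CPM at 2 days. In whole tissue, fewer cells of a type and less RNA per cell cannot be told apart, here and in the neuronal lists.

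By limma, endothelial identity genes were called higher at close to the rate of all genes, although most stood above pre-SE. Of 18 tested 1 rose, which is 5.56% beside 5.07% of all genes, and the median logFC was 0.79. At an unadjusted p under 0.05, 9 were higher, beside 1977 of the 15851 genes tested, and edgeR's exact test called 4 higher. In 16 of the 18 both mice at 2 days stood above both pre-SE mice, beside 26.3% of all genes. The gene called by limma was *Vwf*, von Willebrand factor, which rose from 2.17 and 3.21 CPM to 11.4 and 9.65 CPM (logFC 1.95 ± 0.40, adjusted p = 0.0183). The call was lost whenever a mouse was left out. *Cdh5*, VE-cadherin of endothelial junctions, was at 4.41 and 4.06 CPM pre-SE, 17.6 and 19.5 CPM at 6 h and 7.04 and 7.74 CPM at 2 days. It was not called against pre-SE (adjusted p = 0.175) and was lower at 2 days than at 6 h by a difference of -1.31 (adjusted p = 0.0387). *Cldn5*, the tight junction gene claudin-5, was at 24.2 and 21.2 CPM pre-SE and 52.5 and 29.6 CPM at 2 days (adjusted p = 0.227). Of 14 transporters of the blood-brain barrier limma called none, with 1 higher at an unadjusted p under 0.05 and up to 1 called by the other tools, and *Slc2a1*, the glucose transporter of the barrier, was at 79.9 and 81.5 CPM pre-SE and 113.5 and 135.9 CPM at 2 days.

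Of 15 genes of vessel activation and angiogenesis *Itga5*, *Lrg1* and *Icam1* rose and none fell, and all 3 held whichever mouse was left out. *Itga5*, an integrin that binds fibronectin, was at 0.69 and 1.35 CPM pre-SE and 37.7 and 35.2 CPM at 2 days (logFC 5.09 ± 0.75, adjusted p = 0.00391). *Lrg1*, a secreted glycoprotein that promotes vessel growth, was at no more than 3 tags in either pre-SE mouse and at 4.32 and 3.82 CPM at 2 days, at least 50.4-fold higher. *Icam1*, to which leukocytes adhere, rose from 1.52 and 1.59 CPM to 12.6 and 9.12 CPM (logFC 2.71 ± 0.45, adjusted p = 0.00667). *Angpt2*, an angiopoietin released by activated endothelium, was at 0.34 and 0.85 CPM pre-SE, 5.45 and 15.01 CPM at 6 h and 2.04 and 2.01 CPM at 2 days, and it was not called against either (adjusted p = 0.09 and 0.0505). *Edn1*, the vasoconstrictor endothelin-1, was lower at 2 days than at 6 h, by a difference of -1.82 (adjusted p = 0.0351). *Vegfa* was at 52.0 and 116.1 CPM pre-SE and 110.6 and 239.5 CPM at 2 days, so that the groups overlapped (adjusted p = 0.2). Of 18 genes of mural cells and fibroblasts 8 were higher at an unadjusted p under 0.05. By limma 1 rose, which is 5.56% beside 5.07% of all genes. It was the smooth muscle gene *Cnn1*, which went from 0.00 and 0.06 CPM to 0.30 and 1.24 CPM, and its call was lost in some of the other settings too.

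Of 20 genes of matrix remodelling 11 rose and none fell, with a median logFC of 2.41, and in 18 of 20 both mice at 2 days stood above both pre-SE mice. Between 5 and 11 were called with 1 mouse left out. Several of the proteases were close to the limit of detection pre-SE. *Mmp12*, an elastase of macrophages, was at 0.24 and 0.00 CPM pre-SE and 23.4 and 3.87 CPM at 2 days (logFC 5.71 ± 0.89, adjusted p = 0.00501), and *Mmp3* was at no more than 3 tags in either pre-SE mouse and at 2.80 and 1.29 CPM, at least 25.3-fold higher. *Mmp19* rose from 0.41 and 0.31 CPM to 6.95 and 9.46 CPM and was higher than at 6 h (difference 2.93, adjusted p = 0.0228). *Plaur*, the urokinase receptor, rose from 0.14 and 0.17 CPM to 12.2 and 9.89 CPM (logFC 5.45 ± 0.64, adjusted p = 0.00137), and its ligand gene *Plau* from 1.07 and 1.10 CPM to 11.8 and 9.89 CPM. *Tgfbi*, a matrix protein that transforming growth factor β induces, rose from 1.83 and 1.88 CPM to 26.03 and 47.3 CPM. *Fn1*, fibronectin, was at 11.8 and 26.1 CPM and 51.9 and 161.2 CPM and was not called (adjusted p = 0.101). *Plat*, tissue plasminogen activator, and *Adamts4*, a proteoglycanase, were lower at 2 days than at 6 h (differences of -1.20 and -1.78, adjusted p = 0.0383 and 0.0493).
The promoter of *Plaur* is shown because it holds 1 match to TGANTCA, the AP-1 element, given in capitals, 69 to 63 bases before the annotated start (RefSeq, GRCm38.p6).
*Plaur*, chr7:24462363-24462482, plus strand: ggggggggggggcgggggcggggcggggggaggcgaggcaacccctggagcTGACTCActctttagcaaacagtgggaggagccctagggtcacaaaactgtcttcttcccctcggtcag

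Genes that interferon induces were higher at 2 days than pre-SE and than at 6 h. These genes encode antiviral proteins and sensors that cells make in response to interferons. Of 23 tested 21 rose and none fell, with a median logFC of 4.56, and 14 to 21 were called with 1 mouse left out. *Isg15* (mm9 chr4:155573533-155574927, minus strand), a ubiquitin-like protein, was at 1.17 and 1.51 CPM in the pre-SE mice, 3.75 and 3.56 CPM in the SE 6 h mice and 275.8 and 88.7 CPM in the SE 2 days mice. Its logFC was 6.77 ± 0.48 (adjusted p = 0.000433), and it exceeded the level at 6 h by 5.38 (adjusted p = 0.00172). *Irf7*, the transcription factor that amplifies the interferon response, was at 0.93 and 0.93 CPM pre-SE and 83.3 and 38.7 CPM at 2 days (logFC 5.79 ± 0.41, adjusted p = 0.000433). *Zbp1*, a sensor of Z-form nucleic acids, rose from 0.00 and 0.14 CPM to 18.7 and 9.22 CPM, and *Ifi27l2a* from 1.07 and 4.91 CPM to 186.2 and 190.1 CPM. *Ifit1*, which binds viral RNA, rose from 0.21 and 0.43 CPM to 50.1 and 11.5 CPM (logFC 5.90 ± 0.63, adjusted p = 0.0013).

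The interferon list went against the general order of the SE 2 days mice. Mouse 1 was above mouse 2 in 20 of the 21 genes called, whereas over all called-higher genes mouse 2 was the farther in 65.5%. The summed level of the 23 genes was 50.8 and 58.4 CPM pre-SE, 51.1 and 57.5 CPM at 6 h and 1297 and 610.9 CPM at 2 days. At 2 days 22 of the 23 were called higher than at 6 h. *Cmpk2*, at 12.3 and 10.7 CPM pre-SE and 17.7 and 6.97 CPM at 2 days, did not differ detectably from either.
The promoters of *Isg15* and *Ifit1* are shown for their matches, in capitals, to GAAANNGAA, the core of the interferon-stimulated response element, on either strand (RefSeq, GRCm38.p6, 120 bases before the annotated start).
*Isg15*, chr4:156200819-156200938, minus strand: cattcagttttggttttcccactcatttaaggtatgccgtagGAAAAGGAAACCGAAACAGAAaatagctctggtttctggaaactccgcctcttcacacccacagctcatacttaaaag
*Ifit1*, chr19:34640769-34640888, plus strand: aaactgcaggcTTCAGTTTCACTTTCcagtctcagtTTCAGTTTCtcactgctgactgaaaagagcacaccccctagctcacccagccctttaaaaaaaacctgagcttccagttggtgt
Each holds 3 matches. In *Isg15* they overlap one another between 78 and 58 bases before the start. In *Ifit1* 2 overlap between 109 and 95 bases and the other lies 84 to 76 bases before the start. A match was held by 8.57% of all genes with a promoter entry. Only 15 of the 23 interferon genes had an entry, too few for a share of the list.

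Antigen presentation by MHC class I, which displays peptides of cytosolic proteins, rose as well. Of 14 genes tested 8 rose and none fell, with a median logFC of 2.09, and 4 or 5 were called with 1 mouse left out. *H2-K1*, a class I heavy chain, was at 18.1 and 26.8 CPM pre-SE and 225.3 and 254.3 CPM at 2 days (logFC 3.43 ± 0.39, adjusted p = 0.00137). *Tap1*, a subunit of the peptide transporter that overlaps *Psmb9* on the other strand, rose from 0.34 and 0.29 CPM to 4.88 and 2.58 CPM, and *Psmb9*, an immunoproteasome subunit, from 1.10 and 0.79 CPM to 11.96 and 6.97 CPM. *B2m*, the light chain of class I, just missed the threshold, from 27.2 and 62.4 CPM to 334.4 and 286.0 CPM (adjusted p = 0.0545). The class II genes *H2-Aa*, *H2-Ab1*, *H2-Eb1* and *Cd74* were all above their pre-SE levels and none passed (adjusted p 0.0971 to 0.398). MHC genes have near-identical relatives, and the tags of *H2-K1* and *H2-D1* may be shared among them. Of the list 8 genes were higher at 2 days than at 6 h.

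Genes that neuronal activity induces were largely higher at 2 days than pre-SE. Of 22 tested 14 rose and none fell, with a median logFC of 2.52, and 3 to 15 were called with 1 mouse left out, fewest without SE 2 days mouse 2. In all 14, SE 2 days mouse 2 was above mouse 1. *Fosl1*, a member of the AP-1 family, was at no more than 3 tags in either pre-SE mouse and at 6.78 and 24.2 CPM at 2 days, at least 192-fold higher than the level of 3 tags, and it was at 10.7 and 13.2 CPM at 6 h. By the study's PCR of sorted cells at 2 days, *Fosl1* was highest in astrocytes and very low in neurons. *Atf3*, a stress-induced transcription factor, rose from 0.24 and 1.10 CPM to 17.6 and 82.0 CPM (logFC 5.90 ± 0.91, adjusted p = 0.00476). *Inhba*, the activin βA subunit, was at 7.69 and 5.30 CPM pre-SE and 47.7 and 499.9 CPM at 2 days (logFC 4.57 ± 0.85, adjusted p = 0.0121). *Npas4*, an activity-dependent transcription factor of neurons, rose from 5.55 and 7.54 CPM to 72.3 and 160.1 CPM, and *Fos* from 4.0 and 9.98 CPM to 72.9 and 85.6 CPM. By the study's PCR of whole hippocampus, in contrast, the induction of *Fos* had almost gone a day after SE. *Arc*, a regulator of synaptic strength, was at 58.1 and 107.6 CPM pre-SE, 2129 and 789.6 CPM at 6 h and 339.3 and 861.0 CPM at 2 days. *Homer1*, *Bdnf*, *Egr1*, *Egr3*, *Egr4* and *Fosl2* were above pre-SE in both mice without passing the test.

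Most of the list was estimated below its level at 6 h, with a median difference of -1.15, but only *Gadd45b* and *Nr4a2* were called lower than at 6 h, beside 1.11% of all genes. *Nr4a2*, an orphan nuclear receptor, was at 41.3 and 99.2 CPM pre-SE, 368.2 and 519.0 CPM at 6 h and 74.0 and 49.0 CPM at 2 days. *Nr4a3*, its relative, was at 50.3 and 58.2 CPM pre-SE, 203.1 and 142.7 CPM at 6 h and 39.5 and 40.4 CPM at 2 days, and missed the threshold against 6 h (adjusted p = 0.0674).

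Of 19 genes of the stress response limma called *Hspb1* and *Hmox1* higher and none lower, whereas DESeq2 called 9 higher. Between 1 and 4 were called with 1 mouse left out, the most without SE 2 days mouse 1, and *Hspb1* lost its call whichever mouse was left out. *Hmox1*, heme oxygenase 1, was at 5.72 and 4.89 CPM pre-SE and 30.1 and 26.8 CPM at 2 days (logFC 2.40 ± 0.38, adjusted p = 0.00506). *Hspb1*, a small heat shock protein, was at 2.07 and 4.18 CPM and 93.7 and 131.0 CPM (logFC 5.19 ± 1.10, adjusted p = 0.0228). *Hspa1a*, an inducible HSP70, was at 47.6 and 41.5 CPM pre-SE, 10861 and 1278 CPM at 6 h and 125.7 and 533.0 CPM at 2 days, and with *Hspa1b* and *Dnajb1* it was lower at 2 days than at 6 h (differences of -3.85, -2.56 and -2.88). *Hspa1a* and *Hspa1b* are near-identical copies whose tags may be shared. The metallothionein genes *Mt1* and *Mt2* were at 705.5 and 495.2 CPM and at 496.3 and 426.2 CPM pre-SE, and at 1511 and 2023 CPM and at 1996 and 3383 CPM at 2 days, and neither was called (adjusted p = 0.0988 and 0.0617). Of 19 genes of cholesterol synthesis limma called none, with 1 at an unadjusted p under 0.05 and none called by the other settings and tools.

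**Figure D4:**
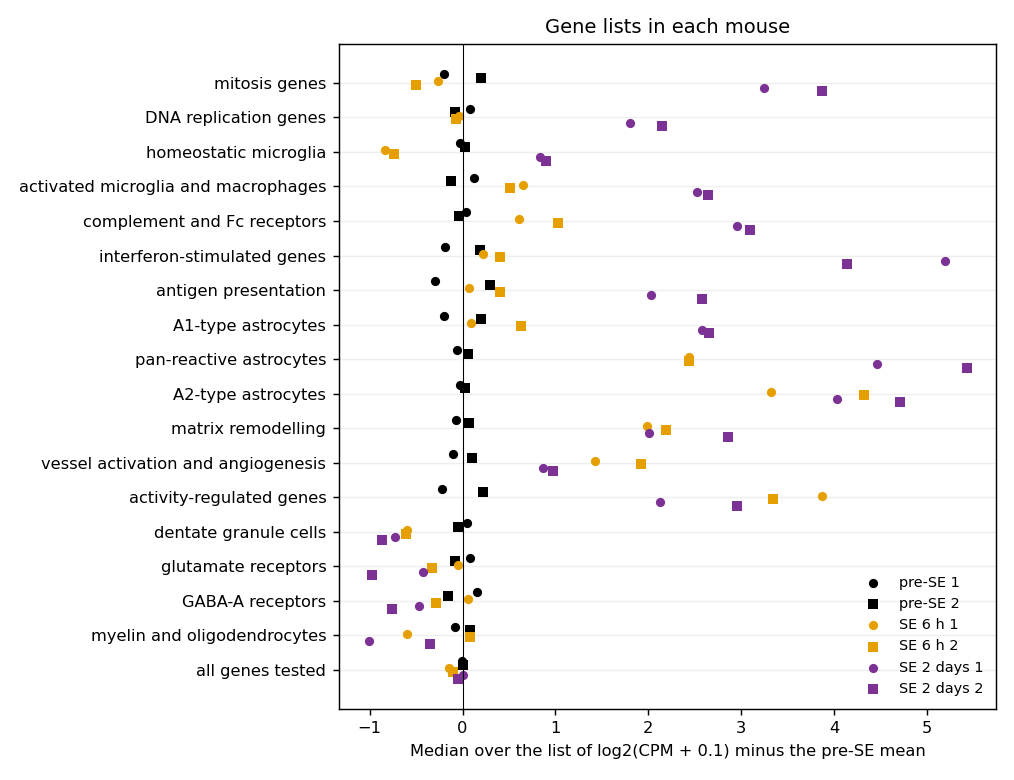
Median over each gene list of the difference of log2(CPM + 0.1) from the pre-SE mean, in each pre-SE, SE 6 h and SE 2 days mouse. The mitosis list is at 3.25 and 3.87 in the SE 2 days mice and at -0.26 and -0.50 in the SE 6 h mice, whereas the activity list is at 2.13 and 2.95 at 2 days and at 3.87 and 3.34 at 6 h.

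The medians by mouse show where each list stood at 2 days and at 6 h. The interferon list was at 5.2 and 4.14 in the SE 2 days mice and at 0.22 and 0.40 in the SE 6 h mice. The homeostatic microglia list was at 0.83 and 0.90 at 2 days and at -0.83 and -0.73 at 6 h. The A2-type list was at 4.03 and 4.71 at 2 days and 3.32 and 4.32 at 6 h, and the matrix list was at 2.01 and 2.86 at 2 days and 1.99 and 2.19 at 6 h. The vessel activation list was at 0.86 and 0.97 at 2 days and 1.43 and 1.93 at 6 h. These medians share the pre-SE mice and are given as a description. Gene by gene, 355 of the 803 higher genes were also higher than at 6 h and 7 were lower.

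The largest decrease was in *Tdo2* (mm9 chr3:81761012-81780124, minus strand), tryptophan 2,3-dioxygenase, which in the hippocampus marks mature dentate granule cells. It was at 7.17 and 3.77 CPM pre-SE and at 0.04 and 0.10 CPM, no more than 3 tags, at 2 days, at least 40.4-fold lower (logFC -4.99 ± 1.21, adjusted p = 0.0401). It was between these levels at 6 h, at 1.38 and 2.06 CPM. Its call was lost whichever mouse was left out and in some of the other settings. *Hes5* (chr4:154335032-154336480, plus strand), a repressor that Notch signalling induces, was at 19.97 and 36.2 CPM pre-SE and 4.49 and 2.10 CPM at 2 days (logFC -3.09 ± 0.52, adjusted p = 0.00757), and it was already at 5.0 and 4.93 CPM at 6 h. *Plk5*, a kinase of neurons and glia that does not act in division, fell from 9.73 and 15.01 CPM to 3.05 and 1.39 CPM (logFC -2.49 ± 0.54, adjusted p = 0.0249). *Htr5b*, a serotonin receptor gene, fell from 1.41 and 1.32 CPM to 0.25 and 0.14 CPM, and *Rnase1*, a secreted ribonuclease of endothelium, from 2.69 and 2.90 CPM to 0.21 and 0.43 CPM (logFC -2.84 ± 0.48, adjusted p = 0.00761). The gene listed as *Ascl4*, a processed transcript that overlaps *D10Wsu52e* on the other strand, fell from 2.07 and 1.84 CPM to 0.25 and 0.14 CPM (logFC -2.82 ± 0.41, adjusted p = 0.00391). Several of the 15 largest decreases were in genes with no settled function or in noncoding transcripts, among them *Gm16721*, *Gm1337*, *Gm11627*, *Gm16263*, *RP23-118G3.2* and *4930412C18Rik*, of which *Gm16721* overlaps *Capn2* and *Gm16263* overlaps *Fgf10*.

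Measured in CPM, the largest losses among called genes were in neuronal genes and the relative changes were smaller. Some genes that were not called lost more, such as *Mbp* with a difference of -1477 CPM. *Nsg2* (mm9 chr11:31900463-31959202, plus strand), which sorts receptors in neuronal endosomes, fell from 926.0 and 644.8 CPM to 346.0 and 296.1 CPM (logFC -1.27 ± 0.30, adjusted p = 0.0353). *Faim2*, an inhibitor of Fas-induced death, fell from 497.6 and 545.8 CPM to 330.0 and 253.6 CPM (logFC -0.85 ± 0.22, adjusted p = 0.0499). *Jph4*, a junctophilin that holds the endoplasmic reticulum to the plasma membrane, fell from 344.3 and 233.9 CPM to 126.3 and 79.4 CPM, and *Car11*, a carbonic anhydrase-related protein, from 306.8 and 186.1 CPM to 82.7 and 58.2 CPM (logFC -1.78 ± 0.41, adjusted p = 0.0332). *Abat*, the transaminase that breaks down GABA, fell from 252.9 and 292.1 CPM to 152.2 and 107.1 CPM, and *Scn3b*, a β subunit of sodium channels, from 165.7 and 163.2 CPM to 85.8 and 52.5 CPM (logFC -1.29 ± 0.27, adjusted p = 0.0207). *Fgf13*, which binds sodium channels, *Elmod1*, *Abhd8* and *Tmem191c* made up the 10. In each of these, as in every called gene, the 2 groups did not overlap, and SE 2 days mouse 2 was the lower of its group. *Nsg2*, *Faim2*, *Car11* and *Abhd8* lost their calls whichever mouse was left out, and *Faim2* also in most of the other settings. The rest of the 10 kept their calls only without SE 2 days mouse 1.

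Among the other lower genes, the following were picked after their values were seen. Several are known from astrocytes. *Ntsr2*, a neurotensin receptor of astrocytes, was at 120.4 and 118.6 CPM pre-SE and 46.4 and 15 CPM at 2 days (logFC -2.17 ± 0.44, adjusted p = 0.0181). *Mfge8*, a bridging protein for phagocytosis, was at 148.1 and 152.2 CPM and 56.0 and 55.6 CPM (logFC -1.43 ± 0.28, adjusted p = 0.0164), and *Cldn10*, a claudin, at 101.2 and 108.1 CPM and 43.0 and 29.2 CPM. *Gjc3*, a connexin of oligodendrocytes, was at 37.4 and 30.3 CPM and 7.55 and 12.2 CPM. Others are known from neurons. *Cort*, the cortistatin peptide of interneurons, was at 13.6 and 22.9 CPM and 4.28 and 7.74 CPM, and *Sstr4*, a somatostatin receptor, at 66.2 and 71.0 CPM and 33.4 and 31.9 CPM. *Bhlhe22*, a transcription factor of excitatory neurons, was at 89.4 and 74.7 CPM and 33.6 and 20.2 CPM.

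In the lists of hippocampal neurons few genes passed the test and most estimates were below 0. Of 10 dentate granule cell genes *Tdo2*, *Plk5* and *Sema5a* fell, with a median logFC of -0.64, beside 0.593% of all genes called lower. With 1 mouse left out 0 or 1 of them was called. *Sema5a*, a semaphorin that restrains synapse formation on granule cells, fell from 51.6 and 38.8 CPM to 15.6 and 15.4 CPM (logFC -1.52 ± 0.36, adjusted p = 0.0361). *Calb1*, the calcium buffer calbindin, was at 348.6 and 277.2 CPM pre-SE and 154.1 and 136.8 CPM at 2 days and just missed the threshold (adjusted p = 0.0553), and it was at 176.8 and 108.7 CPM at 6 h. *Prox1* and *C1ql2* of the same cells had overlapping groups. Of 14 pyramidal cell genes *Fibcd1*, a marker of CA1, fell, from 63.2 and 34.5 CPM to 18.2 and 7.16 CPM (logFC -2.02 ± 0.50, adjusted p = 0.0448), and the median logFC was -0.88. Without SE 2 days mouse 1 the fit called 5 of the 14 lower, and without any of the other mice it called none. *Neurod6* was at 223.6 and 182.6 CPM pre-SE and 139.9 and 48.4 CPM at 2 days (adjusted p = 0.143).

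Of 14 interneuron genes limma called none, with 1 above and 2 below pre-SE at an unadjusted p under 0.05 and up to 1 in each direction called by the other tools. *Gad1*, which makes GABA, was at 206.9 and 251.0 CPM pre-SE and 178.0 and 288.0 CPM at 2 days. *Npy*, neuropeptide Y, was at 101.0 and 122.0 CPM and 179.3 and 710.7 CPM (adjusted p = 0.142), and *Calb2*, calretinin, at 65.2 and 102.4 CPM and 43.9 and 25.8 CPM (adjusted p = 0.0682).

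In each list of channels and receptors 1 gene was called lower, beside 0.593% of all genes. Each of these calls was lost without either pre-SE mouse and without SE 2 days mouse 2. Of 12 GABA-A receptor subunits *Gabrd*, the δ subunit of tonic inhibition in granule cells, fell, from 22.3 and 21.3 CPM to 8.56 and 3.96 CPM (logFC -1.88 ± 0.43, adjusted p = 0.0322). All 12 estimates were below 0 and the median logFC was -0.64. In 9 of the 12 both mice at 2 days stood below both pre-SE mice, beside 25.6% of all genes. *Gabra5*, a subunit abundant in the hippocampus, was at 167.7 and 187.8 CPM pre-SE and 116.6 and 87.0 CPM at 2 days (adjusted p = 0.0902). Of 21 glutamate receptor genes *Grin3a*, an NMDA receptor subunit, fell, from 31.1 and 28.3 CPM to 12.85 and 12.04 CPM (logFC -1.25 ± 0.29, adjusted p = 0.0353). Its call was lost whenever a mouse was left out. In 16 of the 21 both mice at 2 days stood below both pre-SE mice, beside 25.6% of all genes. *Gria1* and *Gria2*, the main AMPA receptor subunits, were at 820.2 and 707.8 CPM and at 1196 and 771.1 CPM pre-SE, and at 574.2 and 326.0 CPM and at 539.0 and 490.2 CPM at 2 days (adjusted p = 0.156 and 0.179). Of 20 potassium and HCN channel genes *Kcnc2*, a Kv3 channel of fast-spiking cells, fell, from 76.1 and 83.3 CPM to 42.1 and 24.1 CPM (logFC -1.32 ± 0.29, adjusted p = 0.0249). *Kcna1*, a Kv1 channel of axons, was at 123.5 and 95.8 CPM pre-SE and 99.3 and 94.1 CPM at 2 days, with the groups overlapping.

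Of 20 genes of synaptic vesicle release only *Sv2c* rose by limma, a share of 5% beside 5.07% of all genes, and none fell. In the list 4 were lower at an unadjusted p under 0.05, and none was called lower by the other tools. *Sv2c*, which is scarce in the resting hippocampus, went from 16.6 and 20.1 CPM to 89.6 and 104.0 CPM (logFC 2.40 ± 0.56, adjusted p = 0.0342), and its call was lost whenever a mouse was left out. Its relative *Sv2a*, the binding site of levetiracetam, was at 177.3 and 149.5 CPM pre-SE and 137.7 and 123.9 CPM at 2 days (adjusted p = 0.463).

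**Figure D5:**
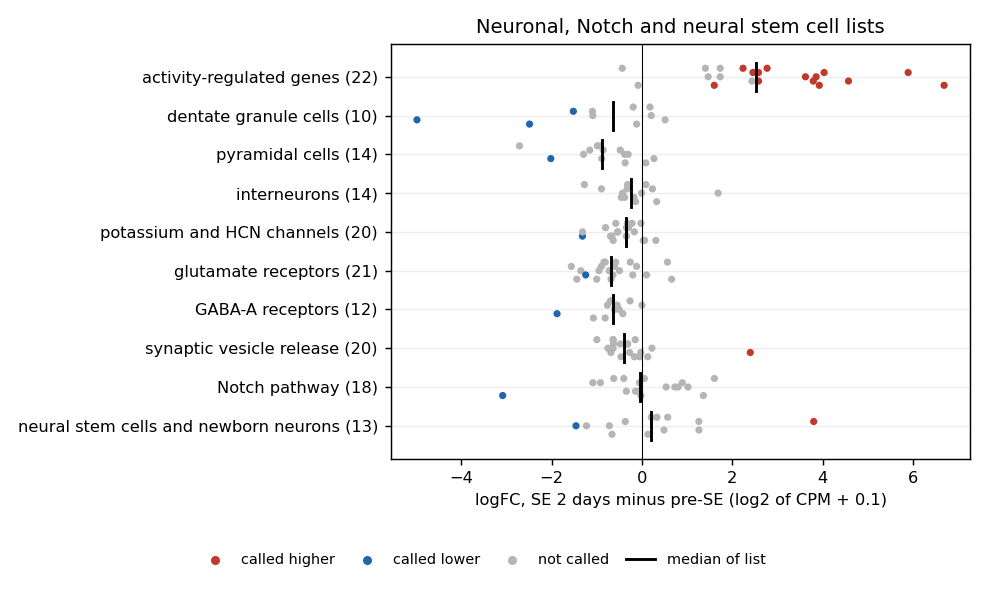
logFC of each gene of the neuronal, Notch and neural stem cell lists, with the number of genes tested after each name. Each point is a gene, red where called higher, blue where called lower and grey where not called, and the black bar is the median of the list. The activity list has its median at 2.52, and the dentate, pyramidal, glutamate and GABA-A receptor lists have theirs between -0.64 and -0.88.

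Of 18 Notch pathway genes limma called only *Hes5* lower and none higher, whereas edgeR's exact test called 3 higher and 2 lower. *Hes5* lost its call without pre-SE mouse 2 and without SE 2 days mouse 2, and the median logFC was -0.04. The receptors *Notch1*, *Notch3* and *Notch4* were above pre-SE in both SE 2 days mice. *Notch1* was at 18.4 and 16.6 CPM pre-SE and 35.8 and 35.2 CPM at 2 days (adjusted p = 0.0591). *Nrarp*, a feedback target, was below pre-SE, at 33.6 and 37.0 CPM pre-SE and 18.5 and 14.8 CPM at 2 days (adjusted p = 0.0618). Of 13 genes of neural stem cells and newborn neurons *Nes* rose and *Neurod1* fell. That is 7.69% in each direction, beside 5.07% of all genes called higher and 0.593% called lower. Both lost their calls without pre-SE mouse 1 and without SE 2 days mouse 2, *Neurod1* also without pre-SE mouse 2. *Nes*, the filament nestin of progenitors and reactive astrocytes, rose from 2.03 and 4.06 CPM to 34.5 and 49.9 CPM (logFC 3.80 ± 0.67, adjusted p = 0.00897), and *Neurod1*, a transcription factor of differentiating granule cells, fell from 30.4 and 47.4 CPM to 18.2 and 10.3 CPM (logFC -1.46 ± 0.37, adjusted p = 0.0497). *Neurod1* overlaps *Cerkl*, which was called lower too. *Dcx* of newborn neurons was at 10.5 and 9.98 CPM and 8.18 and 4.63 CPM (adjusted p = 0.301).

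Markers of other tissue were read beside the decreases. Of 8 red blood cell genes 3 were tested and the β-globin genes *Hbb-b1* and *Hbb-b2* fell, *Hbb-b1* from 17.1 and 18.7 CPM to 5.85 and 3.15 CPM (logFC -2.03 ± 0.41, adjusted p = 0.0181). Both calls were lost without either pre-SE mouse and without SE 2 days mouse 2. The globin copies are similar enough to share tags, and how much blood each sample held was not tested. Of 12 genes of neighbouring brain regions *Drd1a*, a dopamine receptor of striatum and also of granule cells, rose from 6.83 and 4.6 CPM to 15.1 and 16.9 CPM (adjusted p = 0.0407), and its call was lost whenever a mouse was left out. The share called higher was 8.33%, beside 5.07% of all genes, and the median logFC of those 12 was 0.19. The choroid plexus list had a median logFC of -0.58, which was -2.89 without pre-SE mouse 1 and 1.41 without pre-SE mouse 2. Fewer genes were called lower without pre-SE mouse 2, which held the most choroid plexus transcripts of the pre-SE and SE 2 days mice. The same held without pre-SE mouse 1 and without SE 2 days mouse 2. The part of choroid plexus tissue in the decreases was not tested.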

How the data were processed

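Male ICR (CD-1) mouse hippocampi were measured by CAGE, with 2 samples in each group. The authors aligned 75-nt single-end reads to mm9 with BWA 0.7.17 and HISAT2 2.0.5, clustered the starts with RECLU and dropped clusters under 0.1 CPM. They deposited CPM per gene. How clusters were summed to genes, whether strand was used, and whether a sample held 1 or both hippocampi is not given in the sources used here. All 10 columns were mapped to samples by their names, and 0 columns of per-sample values were left out.

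Every deposited CPM value divided by the worth of a single tag gave a whole number to within rounding, and the library sizes recovered this way were 10540698 to 51710968 tags. Genes with at least 0.1 CPM in 2 or more libraries were kept, and limma 3.58.1 (R 4.3.3) with a trended prior was fitted to log2(CPM + 0.1) of all 10 libraries with a mean for each of the 5 groups, so that the groups share 1 spread (5 residual degrees of freedom). Adjusted p-values are Benjamini-Hochberg over all genes tested, two-sided, and a gene was called at 0.05 or below. An exact permutation test of 2 against 2 cannot go below 0.333 and was not used. Where a group was at 3 tags or fewer in both mice, the fold is a bound against 3 tags over that group. It covers counting error only.

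Alternatives were other pseudocounts and filters, median-of-ratios scaling, no trend, only the groups compared, the replicate number as a block, edgeR 4.0.16 and DESeq2 1.42.0 on the recovered tags, and each mouse left out. Leaving out SE 6 h mice was added after the data were seen. The scripts were tested on simulated data. The gene lists and members were chosen with earlier results of these data known. The genes named are, in each direction, the 15 called genes with the largest logFC among those whose groups did not overlap, and the 10 with the largest difference in CPM. Also named are up to 4 called genes in each direction per list, the first 2 of each list, and members needed to account for a list. Some genes that meet these rules are not reported here. Promoter sequences and motif matches are from RefSeq (GRCm38.p6), where 10085 of 15680 tested symbols had an entry.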

Additional observations from a re-analysis of the deposited data

Results flagged for a closer look

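The named genes below were flagged because their change from pre-SE differed between the 2 times after SE by a test of the difference itself. Each value is the level at SE 2 days minus the level at SE 6 h on the log2(CPM + 0.1) scale, with 2 mice at each time (limma, adjusted over all genes tested), and the test does not use the pre-SE mice except for the shared spread. The SE 6 h mice had 31178064 and 14594579 tags, at which 3 tags correspond to 0.096 and 0.206 CPM. Some genes were below that level in both SE 6 h mice, among them *Hmmr*, *Mcm10*, *Iigp1* and *Ms4a4c*. The size of their differences depends on the 0.1 CPM added. No outlier test was made, since groups of 2 are too small for it, and no data outside the main measurement were used.

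Among genes of cell division the difference was 5.3 for *Ube2c*, 5.25 for *Mki67*, 4.91 for *Hmmr*, 4.41 for *Cdk1*, 4.3 for *Plk1*, 4.86 for *Tk1*, 3.21 for *Rrm2*, 3.19 for *Uhrf1*, 3.07 for *Mcm10*, 2.24 for *Mcm3* and 1.94 for *Rbl1*. Among genes of interferon response and antigen presentation it was 6.23 for *Zbp1*, 5.74 for *Cxcl10*, 5.38 for *Isg15*, 4.78 for *Ifi27l2a*, 4.29 for *Ifit1*, 1.36 for *Ifit2*, 4.13 for *Mnda*, 3.68 for *Iigp1*, 4.27 for *Psmb9*, 3.71 for *Psmb8*, 2.79 for *Tap1* and 2.68 for *H2-K1*.

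Among genes of microglia, macrophages and complement it was 6.17 for *Cd72*, 4.09 for *Fcgr4*, 3.91 for *Fcgr1*, 2.66 for *C1qa*, 2.14 for *C1qb*, 1.64 for *Cd68*, 3.68 for *Tmem119*, 3.11 for *Olfml3*, 2.86 for *Fcrls* and 1.34 for *P2ry6*, and among monocyte markers 4.06 for *Ms4a4c* and 3.6 for *Plac8*. Among genes of astrocytes and other large gains it was 3.57 for *Lgals1*, 2.9 for *S100a6*, 2.52 for *Vim*, 2.45 for *Apod*, 2.38 for *Gfap* and 1.48 for *Aqp4*. It was below 0 for *Hspa1a* (-3.85), *Hspa1b* (-2.56), *Mettl11b* (-2.25), *Rnase1* (-2.12) and *Cdh5* (-1.31). *Tmem119* and *Cdh5* were not called against pre-SE.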

How the results depend on the processing

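The counts of called genes stayed within 1.5 times the main counts under the other pseudocounts and filters, median-of-ratios scaling, no trend and a fit without the other groups. By contrast, edgeR's exact test on recovered tags gave 1352 genes higher and 374 lower than pre-SE, and DESeq2 gave 1260 and 347. Against SE 6 h, edgeR's exact test gave 801 higher and 637 lower, DESeq2 gave 586 lower and edgeR's quasi-likelihood test gave 319 higher. The cause of these shifts was not tested. With 1 mouse left out the counts were 245 to 605 higher and 3 to 190 lower than pre-SE, and 116 to 389 higher and 42 to 117 lower than SE 6 h, from fits with fewer samples in which the lone mouse is assumed to vary like the other groups. The replicate numbers gave no sign of pairing: same-numbered samples correlated at 0.057 between pre-SE and SE 2 days and at -0.019 between SE 6 h and SE 2 days. With 1 difference between mice per group, these values cannot exclude a pairing or a shared batch. With the replicate number as a block the counts were 715 and 89 against pre-SE and 413 and 136 against SE 6 h. Of 2670 values of the 167 named genes under alternatives, 283 lost their call, 29 gained one and 0 were calls in the other direction, although estimates of genes that were not called, such as *Gad1* and *Cspg4*, changed sign under 6 and 4 of the alternatives. Apart from single mice left out, 572 of the 803 higher and 34 of the 94 lower genes were called under every alternative. At 20937023 and 23585359 tags at 2 days, a fall of a gene that was near 3 tags pre-SE was not detectable.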
